A study of Mus musculus with 9 samples.

Results

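The genes described here drive or execute cell division: 41 listed mouse genes, of which 16 act in DNA replication or in the supply of its building blocks, 21 act in mitosis and 4 are transcription factors that switch the others on. The list names genes of known function, and it was drawn up with earlier results of these data known. On the array, 39 of the 41 had a probe set (the group of probes that reports 1 transcript) of their own, and all 39 were among the 12579 genes bright enough to be tested. These were 15 replication genes, 20 mitotic genes and the 4 regulators. No probe set was listed for Ccnb1, and the probe set of Ccne2 also reports Ints8, so neither has a value here. Where a gene had several probe sets, the brightest was used.

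A dividing cell copies its DNA in S phase and parts the copies in mitosis. Transcription follows this order. E2F factors, held back by the retinoblastoma family until cyclin-dependent kinases release them, turn on the replication genes late in G1 phase. The mitotic genes come on later, in S and G2 phase, when MYBL2 (B-MYB) and then FOXM1 join the MuvB complex, which binds a promoter element called the cell cycle genes homology region. Natural killer (NK) cells of the spleen are mostly at rest, and a high dose of IL-2, which signals through JAK1, JAK3 and STAT5, drives them to grow and divide in culture. TYK2, the Janus kinase changed in these mice, serves the receptors of type I interferons and of IL-12 and its relatives, and not that of IL-2.

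RNA came from NK cells that had been enriched with DX5 magnetic beads from spleens of female C57BL/6N mice, pooled from 3 to 4 animals for each genotype and experiment, and then kept for 7 days with 5000 U/ml of recombinant human IL-2, with the cultures divided on days 4 and 6. The genotypes were wild type (WT), Tyk2-/- (deficient in Tyk2) and Tyk2K923E (a kinase-inactive form), and all cultures received the same IL-2. The ages of the mice and the way the alleles were made were not given in the sources used here. Each of 3 independent experiments gave 1 array per genotype, 9 arrays in all, and their number limits the precision. Values are log2 units, and array medians lay between 5.42 and 5.48. What distinguished the experiments (dates, mice, reagents, RNA quality) was not given.

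The label of the cells was checked against marker genes. All 11 NK cell markers, among them Ncr1, Nkg7, Gzmb and Prf1, were above the median of the array on at least some arrays. Their summed linear level, which weights the brightest most, was 37000 to 40200 on every array. It was 37000 to 38900 in experiment 1, 38700 to 40200 in experiment 2 and 38300 to 39800 in experiment 3. Single markers differed more: Itga2 read 8.34, 8.62 and 8.34 in WT and 7.62, 7.81 and 7.75 in Tyk2K923E. Relative to WT, 7 of the 11 read lower in Tyk2K923E and 4 higher, and the paired fit called 1 lower (0.0874% of all genes were called). Relative to experiment 2, and also to experiment 3, 9 of the 11 read lower in experiment 1 and 2 higher. Against experiment 2, 1 was called lower and 2 higher (16.9% and 11.6% of all genes). Against experiment 3, 2 were called lower and 2 higher (17.2% and 14.7% of all genes). T cell markers were present too: Cd3e read 10.5 to 11.8, although Cd4 read only 5.32 to 5.58. B cell markers were at or below the array median on all 9 arrays in 6 of 7 cases, neutrophil markers in 6 of 8, erythroid and platelet markers in 2 of 3, basophil and mast cell markers in 4 of 7 and monocyte markers in 2 of 7. Some of the others were bright on every array: Mcpt8 read 9.87 to 11.1 and Kit 8.28 to 9.11 (basophil and mast cell), and Cd68 7.78 to 8.86 (monocyte). For the targeted gene, Tyk2, the Tyk2-/- arrays read 9.55, 8.63 and 8.85, no lower than the WT arrays at 8.68, 8.56 and 8.63. Which part of the gene was altered and where the probes lie were not given, so this probe set cannot check the genotype labels.

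Short sequence words were counted in the promoters of the replication and the mitotic genes, since the factors named above act through them. RefSeq promoter sequences (GRCm38.p6, 250 bases before to 50 after the annotated start) were at hand for 33 of the 41 genes, 35 promoters in all. They were searched on both strands for E2F words (TTTCCCGC, TTTCGCGC, TTTGGCGC or TTTGCCGC), for TTTGAA, the core of the cell cycle genes homology region, and for CCAAT, the word bound by NF-Y. An E2F word was present in 6 of 14 replication promoters (42.9%), those of Cdc6, Cdt1, Mcm3, Mcm5, Mcm6 and Mcm7, in 1 of 17 mitotic promoters (5.88%, Cdk1) and in 2.26% of all 32851 promoters of the table. TTTGAA was present in 12 of 17 mitotic promoters (70.6%), in 1 of 14 replication promoters (7.14%, Mcm2) and in 17.9% of all promoters. CCAAT was present in 15 of 17 mitotic (88.2%), 9 of 14 replication (64.3%) and 37.4% of all promoters. Of the 4 regulator promoters, 1 held an E2F word, 1 held TTTGAA and 2 held CCAAT, all of them in promoters of E2f2. A match is a description of the letters and does not show that a factor binds.

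The promoters of 3 replication genes show the E2F words. The 160 bases directly before the annotated start are printed 5′ to 3′ on the strand of the gene, with E2F words of either strand in capitals. They lie at chr11:98907991-98908150 (Cdc6, plus strand), chr8:75109349-75109508 (Mcm5, plus strand) and chr1:128359706-128359865 (Mcm6, minus strand) in GRCm38.p6. In Mcm5 and Mcm6 a word on 1 strand overlaps a word on the other, which makes the longer run of capitals.
Cdc6: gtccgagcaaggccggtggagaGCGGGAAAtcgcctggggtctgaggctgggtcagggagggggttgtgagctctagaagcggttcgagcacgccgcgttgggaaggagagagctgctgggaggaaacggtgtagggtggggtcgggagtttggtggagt
Mcm5: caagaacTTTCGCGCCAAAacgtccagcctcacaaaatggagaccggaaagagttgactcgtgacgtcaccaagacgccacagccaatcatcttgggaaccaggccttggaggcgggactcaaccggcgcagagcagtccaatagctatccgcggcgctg
Mcm6: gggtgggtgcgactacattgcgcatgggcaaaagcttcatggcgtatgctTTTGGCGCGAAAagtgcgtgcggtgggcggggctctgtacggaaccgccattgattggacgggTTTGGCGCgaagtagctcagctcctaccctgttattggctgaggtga

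The promoters of 4 mitotic genes show TTTGAA in capitals, on either strand, close to the start (on the other strand it reads TTCAAA). They lie at chr4:118437344-118437503 (Cdc20, minus strand), chr10:69352913-69353072 (Cdk1, minus strand), chr11:99024190-99024349 (Top2a, minus strand) and chr2:164769769-164769928 (Ube2c, plus strand). The word nearest to the start begins 18 bases before it in Cdc20, 15 in Cdk1, 23 in Top2a and 29 in Ube2c. In each of the 4, CCAAT, or ATTGG on the other strand, stands upstream of it in lower case, and the E2F word of Cdk1 is also left in lower case.
Cdc20: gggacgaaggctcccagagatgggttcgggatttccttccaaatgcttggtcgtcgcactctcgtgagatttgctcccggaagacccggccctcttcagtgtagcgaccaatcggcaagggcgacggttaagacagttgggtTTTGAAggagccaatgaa
Cdk1: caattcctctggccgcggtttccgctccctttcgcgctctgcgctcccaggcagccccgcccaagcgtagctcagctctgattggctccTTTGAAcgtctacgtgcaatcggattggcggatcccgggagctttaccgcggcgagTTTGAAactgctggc
Top2a: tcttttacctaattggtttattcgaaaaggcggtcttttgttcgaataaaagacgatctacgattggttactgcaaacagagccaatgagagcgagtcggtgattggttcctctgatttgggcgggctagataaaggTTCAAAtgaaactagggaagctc
Ube2c: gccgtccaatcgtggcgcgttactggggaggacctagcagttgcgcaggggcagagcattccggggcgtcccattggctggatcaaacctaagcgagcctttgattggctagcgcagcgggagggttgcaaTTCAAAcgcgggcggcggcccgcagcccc

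Across the 9 arrays these genes moved together, and of the comparisons made here the experiments, not the genotypes, gave the calls. All 39 genes had a lower mean in experiment 1 than in experiments 2 and 3. The fit (limma, with genotype as a term) called 35 of 39 lower in experiment 1 than in experiment 2, at a Benjamini-Hochberg adjusted p under 0.05, where 16.9% of all genes were called lower and 11.6% higher. Against experiment 3 it called 34 of 39 lower, where 17.2% of all genes were called lower and 14.7% higher. Between experiments 2 and 3 it called 0 of 39, and 0% of all genes in either direction (1 of the 39 and 714 of all genes had an unadjusted p under 0.05). Since each experiment was a separate set of pooled mice, cultures and RNA, these p-values measure only the spread among the arrays of these runs. In bulk RNA, fewer cells in cycle and less RNA of these genes per cell cannot be told apart.

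The median of the 39 differences was -0.69 (experiment 1 minus 2) and -0.73 (experiment 1 minus 3), while the median over all 12579 genes was -3e-04 and -0.002. For 35 of the 39 genes the 3 arrays of experiment 1 all lay below the other 6, as they did for 18.7% of all genes. The exceptions were Ccnb2, Ube2c, E2f1 and E2f2. The lowest of the 9 values was that of the Tyk2K923E array of experiment 1 for 39 of 39 genes, against 21.1% of all genes. The highest was that of the Tyk2-/- array of experiment 3 for 25 of 39, against 12.2% of all genes.

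**Figure D1:**
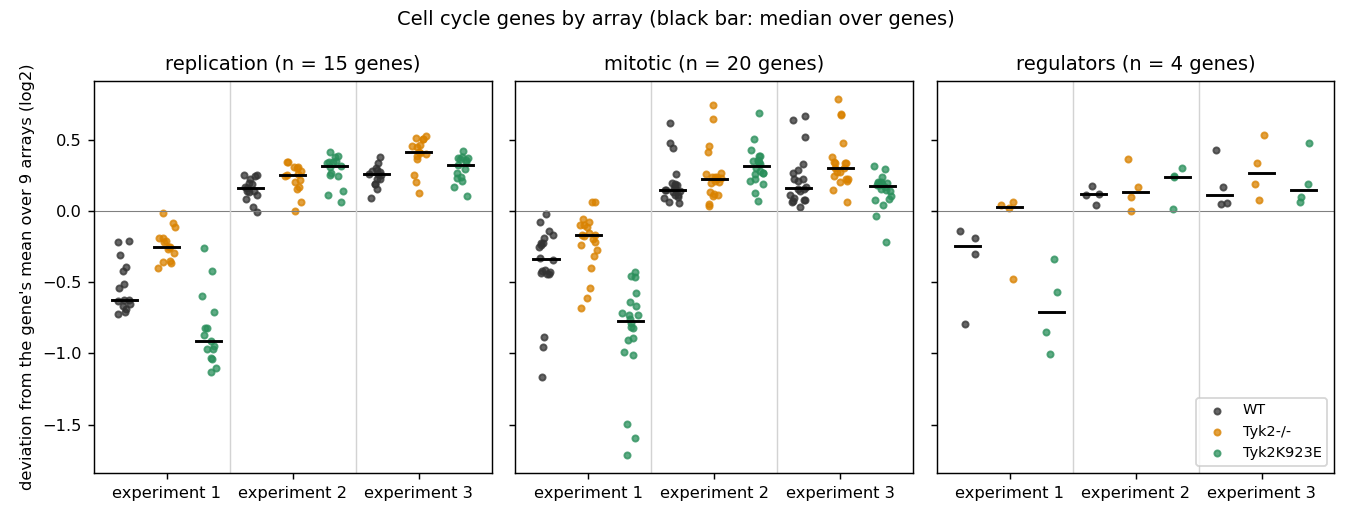
Each point is 1 gene on 1 array, as its log2 deviation from that gene's mean over the 9 arrays, for 15 replication genes, 20 mitotic genes and 4 regulators, with arrays ordered by experiment and coloured by genotype and black bars at the median. The arrays of experiment 1 sit lowest, with replication medians of -0.91 (Tyk2K923E), -0.62 (WT) and -0.25 (Tyk2-/-), and the other 6 arrays lie between 0.16 and 0.42.

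Of the replication genes, 15 of 15 were called lower in experiment 1 against both other experiments, with a median difference of -0.91 from the mean of experiments 2 and 3, which is 1.89-fold, and a range of 1.21-fold (Pcna) to 2.03-fold (Rrm2). The minichromosome maintenance genes encode the 6 subunits of the helicase that opens DNA at the fork. Mcm4 read 9.62, 10.45 and 10.48 on the WT arrays of experiments 1, 2 and 3, 10.06, 10.47 and 10.64 on the Tyk2-/- arrays and 9.38, 10.57 and 10.61 on the Tyk2K923E arrays. In the same order of experiments, Mcm6 read 9.97, 10.65 and 10.74 in WT, 10.37, 10.65 and 10.85 in Tyk2-/- and 9.66, 10.75 and 10.72 in Tyk2K923E. The Mcm4 and Mcm6 values of experiment 1 lay below all others in every genotype. Relative to the mean of experiments 2 and 3, experiment 1 was 2.03-fold lower for Mcm3, 1.96-fold for Mcm2 and Mcm5, 1.91-fold for Mcm7, 1.8-fold for Mcm4 and 1.66-fold for Mcm6. The limma adjusted p of the 6 genes ranged from 0.00064 (Mcm5) to 0.00638 (Mcm6) against experiment 2.

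Genes that load the helicase were lower too, by different amounts. Cdc6, a loading factor that acts before S phase, was 2-fold lower in experiment 1: its values were 7.65, 8.08 and 7.41 on the WT, Tyk2-/- and Tyk2K923E arrays of experiment 1 and 8.62 to 8.79 on the other 6. Cdt1, its partner, which is restrained by geminin and destroyed in S phase, was 1.38-fold lower. Gins2, a subunit of the GINS complex that activates the helicase, was 1.34-fold lower. Ccne1, the cyclin that with CDK2 brings cells into S phase, was 1.86-fold lower and read 7.77 to 8.24 in experiment 1 and 8.68 to 9.10 elsewhere.

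Among the enzymes that supply deoxynucleotides, both subunits of ribonucleotide reductase were lower in experiment 1. For Rrm1 the values were 10.11, 10.94 and 11.08 in WT, 10.51, 10.98 and 11.23 in Tyk2-/- and 9.83, 11.16 and 11.15 in Tyk2K923E. Rrm2, the subunit whose level rises in S phase, read 9.36, 9.86 and 8.94 on the WT, Tyk2-/- and Tyk2K923E arrays of experiment 1 and 10.26 to 10.53 on the other 6. Experiment 1 was 1.92-fold lower for Rrm1 and 2.03-fold lower for Rrm2, with no overlap with the other arrays. A second probe set of Rrm2 (17547690), near the array median, read 5.44 to 6.08 in experiment 1 and 6.01 to 6.32 elsewhere, so that its ranges overlapped. Tyms, which makes thymidylate, was 1.89-fold lower, and Tk1, the S-phase thymidine kinase, 1.57-fold. The WT arrays of experiments 1, 2 and 3 gave 11.53, 11.74 and 11.84 for Pcna, the Tyk2-/- arrays gave 11.66, 11.75 and 11.87 and the Tyk2K923E arrays gave 11.49, 11.89 and 11.96. Pcna, the sliding clamp of the polymerases, had the smallest shift of the replication genes, 1.21-fold, with a limma adjusted p of 0.0437 against experiment 2 and 0.00989 against experiment 3.

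The mitotic genes were lower in experiment 1 as well, but spread more widely, from 1.14-fold (Ccnb2) to 3.44-fold (Cenpe), with a median of -0.65 (1.57-fold). Of 20, the fit called 18 lower against experiment 2 and 17 against experiment 3. The largest shifts belonged to Cenpe, a kinesin that links kinetochores to microtubules, and Cenpf, a large kinetochore protein. Cenpe read 7.82, 9.60 and 9.62 on the WT arrays of experiments 1, 2 and 3, 8.30, 9.73 and 9.66 on the Tyk2-/- arrays and 7.27, 9.67 and 9.19 on the Tyk2K923E arrays. In the same order of experiments, Cenpf read 7.38, 8.81 and 9.0 in WT, 7.72, 8.98 and 9.12 in Tyk2-/- and 6.74, 8.84 and 8.41 in Tyk2K923E. Experiment 1 was 3.44-fold lower than the others for Cenpe and 2.99-fold for Cenpf, with no overlap between the arrays of experiment 1 and the other 6. Against experiment 2 the limma adjusted p was 0.000416 for Cenpe and 0.000523 for Cenpf.

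Mki67, the proliferation marker Ki-67 that coats mitotic chromosomes, came next. For Mki67 the values were 10.35, 11.68 and 11.76 in WT, 11.02, 11.65 and 11.92 in Tyk2-/- and 9.74, 11.59 and 11.43 in Tyk2K923E. Its experiment 1 values lay below the rest, 2.46-fold on average, and the Tyk2-/- array of experiment 1 was 0.67 above the WT array, while the Tyk2K923E array was at -0.61 relative to it. The WT arrays of experiments 1, 2 and 3 gave 10.29, 10.90 and 10.98 for Top2a, the Tyk2-/- arrays gave 10.44, 10.98 and 11.05 and the Tyk2K923E arrays gave 9.81, 10.98 and 11.01. Top2a, the topoisomerase that untangles the chromatids, was 1.74-fold lower in experiment 1 (limma adjusted p = 0.00305 against experiment 2 and 0.0019 against experiment 3).

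The cyclins of mitosis shifted by less. Ccna2 read 10.98, 11.32 and 11.32 on the WT arrays of experiments 1, 2 and 3, 11.13, 11.34 and 11.42 on the Tyk2-/- arrays and 10.57, 11.42 and 11.38 on the Tyk2K923E arrays. Ccna2, cyclin A2, which acts in both S phase and mitosis, was 1.39-fold lower in experiment 1. In the same order of experiments, Ccnb2 read 10.92, 11.10 and 11.02 in WT, 11, 11.18 and 11 in Tyk2-/- and 10.51, 11.01 and 10.72 in Tyk2K923E. For Ccnb2, cyclin B2, the WT and Tyk2-/- arrays of experiment 1 lay within the range of the other 6. Its low values were those of Tyk2K923E in experiments 1 and 3, and the limma adjusted p was 0.0261 against experiment 2 and 0.356 against experiment 3. Cdk1, the kinase that these cyclins activate, was 1.36-fold lower in experiment 1.

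Genes of the spindle checkpoint and the mitotic kinases lay between these extremes. The checkpoint kinase Bub1 was 1.99-fold lower in experiment 1, Ttk (MPS1), which starts the checkpoint, 1.73-fold and Bub1b (BUBR1) 1.42-fold. Plk1, a kinase active from entry into mitosis to its exit, was 1.58-fold lower, Aurkb, of the chromosomal passenger complex, 1.57-fold, its partner Birc5 (survivin) 1.49-fold and Aurka, of the spindle poles, 1.47-fold. The spindle motors Kif11 and Kif20a were 1.77-fold and 1.65-fold lower, and Tpx2, which activates Aurora A on microtubules, 1.59-fold. Cdc20, the activator of the anaphase-promoting complex, was 1.51-fold lower. Nusap1, a spindle-associated protein (1.3-fold), and Ube2c, the ubiquitin-conjugating enzyme of the anaphase-promoting complex (1.2-fold), were not called against experiment 2 or experiment 3 alone: the limma adjusted p was 0.0716 for Nusap1 against either experiment, and 0.0789 and 0.104 for Ube2c. Against the mean of both experiments Nusap1 was called (adjusted p = 0.038) and Ube2c was not (adjusted p = 0.0502).

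All 4 regulators read lower in experiment 1, and 2 of them were called. For Mybl2 the values were 7.96, 8.93 and 9.18 in WT, 8.28, 9.12 and 9.29 in Tyk2-/- and 7.75, 9.06 and 9.23 in Tyk2K923E. Mybl2 was 2.2-fold lower in experiment 1, the largest shift of the regulators, with a limma adjusted p of 0.000527 against experiment 2 and 0.000283 against experiment 3. Its second probe set (17394003) read 5.0 to 5.25 in experiment 1 and 5.39 to 5.51 elsewhere, which is below the array medians (5.42 to 5.48) in experiment 1 and near them elsewhere, so it adds little to the first. The WT arrays of experiments 1, 2 and 3 gave 7.84, 8.26 and 8.31 for Foxm1, the Tyk2-/- arrays gave 8.16, 8.31 and 8.48 and the Tyk2K923E arrays gave 7.29, 8.38 and 8.24. Foxm1 was 1.48-fold lower in experiment 1 (adjusted p = 0.0292 and 0.0219, limma). E2f1 read 7.64, 7.87 and 7.88 on the WT arrays of experiments 1, 2 and 3, 7.89, 7.93 and 7.91 on the Tyk2-/- arrays and 7.49, 7.84 and 8.02 on the Tyk2K923E arrays. In the same order of experiments, E2f2 read 7.44, 7.69 and 7.63 in WT, 7.62, 7.58 and 7.77 in Tyk2-/- and 7.01, 7.82 and 7.64 in Tyk2K923E. The ranges of E2f1 and E2f2 in experiment 1 overlapped those of the other arrays, and neither was called against experiment 2 or experiment 3 (limma adjusted p = 0.133 and 0.0622 for E2f1, 0.106 and 0.113 for E2f2). Against the mean of both experiments the limma adjusted p was 0.0509 for E2f1 and 0.0623 for E2f2, just above the threshold.

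**Figure D2:**
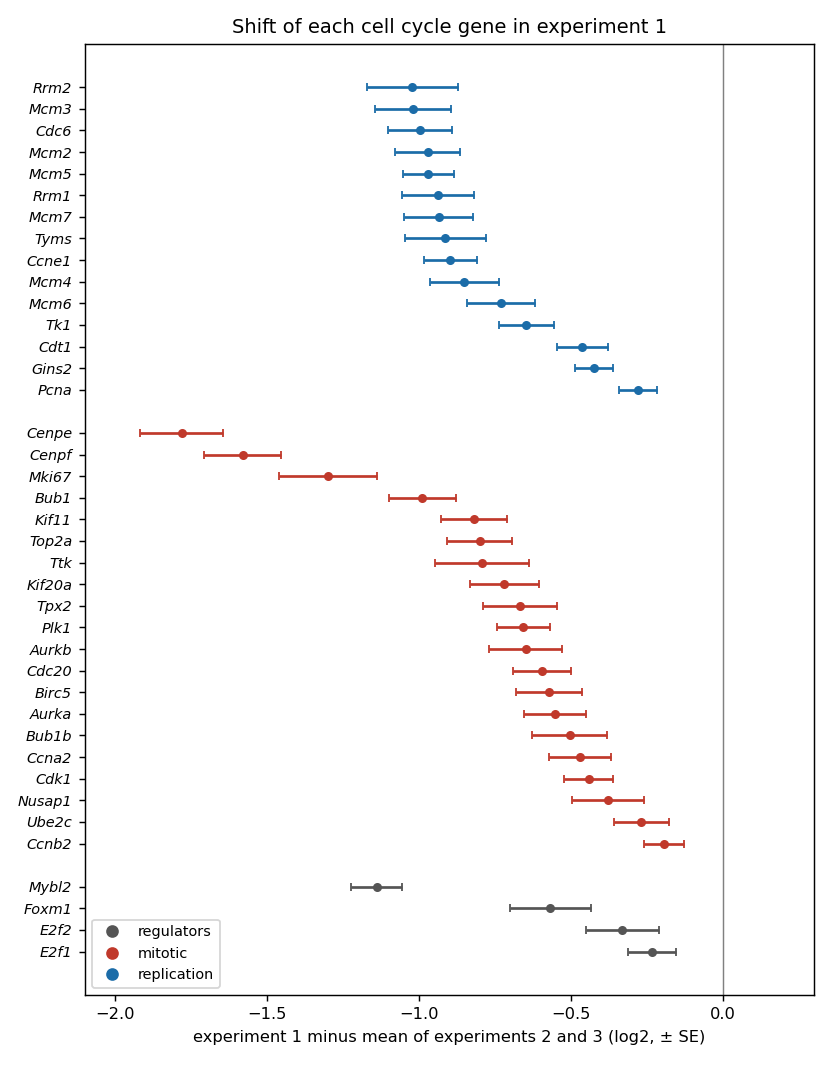
Each point is the log2 difference of 1 gene between experiment 1 and the mean of experiments 2 and 3, with bars of 1 SE from the fit, sorted within replication genes (blue), mitotic genes (red) and regulators (grey). All 39 points lie left of 0, from Cenpe at -1.78 to Ccnb2 at -0.195, both mitotic genes. The replication genes run from -1.02 (Rrm2) to -0.28 (Pcna) with a median of -0.91, a narrower range than that of the mitotic genes.

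Replication and mitotic genes did not keep quite the same distance on every array. The median deviation of the replication genes minus that of the mitotic genes was -0.28 on the WT array of experiment 1, -0.14 on Tyk2K923E and -0.08 on Tyk2-/-. It was 0.01, 0.0014 and 0.03 on the WT, Tyk2K923E and Tyk2-/- arrays of experiment 2, and 0.10, 0.14 and 0.11 on those of experiment 3. Between experiments 2 and 3 themselves, 15 of 15 replication genes read lower in experiment 2, by a median of -0.10, while 12 of 20 mitotic genes read higher in it, with a median of 0.01, and none of these differences was called. Over the 9 arrays, pairs of replication genes correlated with a median r of 0.979 (105 pairs), pairs of mitotic genes with 0.957 (190 pairs) and mixed pairs with 0.957 (300 pairs). Over the 6 arrays of experiments 2 and 3 the medians were 0.738, 0.53 and 0.442. These values are descriptions, since the arrays share experiments and all pairs share arrays.

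The study compared the genotypes, and in that comparison 0 of the 39 genes passed the test. The unpaired limma fit over 9 arrays called 0 of 39 between Tyk2-/- and WT (0.0318% of all genes were called), 0 of 39 between Tyk2K923E and WT (0.00795%) and 0 of 39 between Tyk2-/- and Tyk2K923E (0.0238%). With the experiments paired it called 0 of 39 in each, where 0.0874%, 0.0874% and 0.0238% of all genes were called. At an unadjusted p under 0.05 the unpaired fit held 0, 0 and 1 of the 39 genes (262, 529 and 303 of all genes) and the paired fit 0, 2 and 10 (1142, 1258 and 1218 of all genes). An exact test of 3 arrays against 3 cannot give a p below 0.1.

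By median the 39 genes read 0.14 higher in Tyk2-/- than in WT, with 37 of 39 above 0, and at -0.09 in Tyk2K923E relative to WT, with 34 of 39 below 0. The medians over all genes were 0.0045 and 0.002. The spread between experiments was wider than these differences: Mki67 averaged 11.26 ± 0.79 (SD, n = 3) in WT, 11.53 ± 0.46 in Tyk2-/- and 10.92 ± 1.02 in Tyk2K923E. Rrm2 averaged 9.99 ± 0.55 (SD, n = 3), 10.25 ± 0.34 and 9.97 ± 0.89 in the same order. These SDs include the shift of experiment 1 that the genotypes shared, which pairing by experiment removes. For Mki67 the SE of the difference between Tyk2-/- and WT was 0.55 unpaired and 0.19 paired. For replication genes the median was 0.20 in Tyk2-/- and -0.04 in Tyk2K923E, for mitotic genes 0.11 and -0.10, and for regulators 0.15 and -0.05. Within experiments 1, 2 and 3, Tyk2-/- read higher than the WT array of the same experiment for 34, 32 and 36 of 39 genes. Single arrays moved the medians of the unpaired means, where leaving out 1 array also leaves the experiments unequally represented in the genotypes compared. Without the WT array of experiment 1 the Tyk2-/- medians turned to -0.07 (replication) and -0.04 (mitotic), and without its Tyk2-/- array they were 0.40 and 0.25, and without the Tyk2-/- array of experiment 3 they were 0.05 and 0.02. Without the Tyk2K923E array of experiment 1 the Tyk2K923E medians turned to 0.36 and 0.23, and without its WT array they were -0.30 and -0.29. Without the WT array of experiment 2 or of experiment 3 the replication median of Tyk2K923E turned to 0.04 or 0.10. With all of experiment 1 left out, the medians were 0.11 (replication) and 0.08 (mitotic) for Tyk2-/- and 0.10 and 0.06 for Tyk2K923E.

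In the paired fit of Tyk2-/- against WT, 0 of 39 genes had an unadjusted p under 0.05, and the smallest belonged to Ccne1 (0.23, SE 0.10, limma adjusted p = 0.558), Mcm5 (0.21, SE 0.10, adjusted p = 0.566) and Mybl2 (0.21, SE 0.10, adjusted p = 0.58). In the comparisons with Tyk2K923E the smallest paired p belonged to mitotic genes. Between Tyk2-/- and Tyk2K923E, Cenpf differed by 0.61 (SE 0.15, paired limma adjusted p = 0.452), Ccnb2 by 0.32 (SE 0.08, adjusted p = 0.452), Cenpe by 0.52 and Mki67 by 0.61 (both adjusted p = 0.452). The other genes with an unadjusted p under 0.05 there were Cdc20 (0.31), Plk1 (0.27), Mcm2 (0.35), Cdt1 (0.26), Mcm5 (0.26) and Tk1 (0.26). Between Tyk2K923E and WT, the pair with an unadjusted p under 0.05 was Ccnb2 (-0.27, SE 0.08, paired limma adjusted p = 0.266) and Cenpf (-0.40, SE 0.15, adjusted p = 0.404). None of these passed the threshold.

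**Figure D3:**
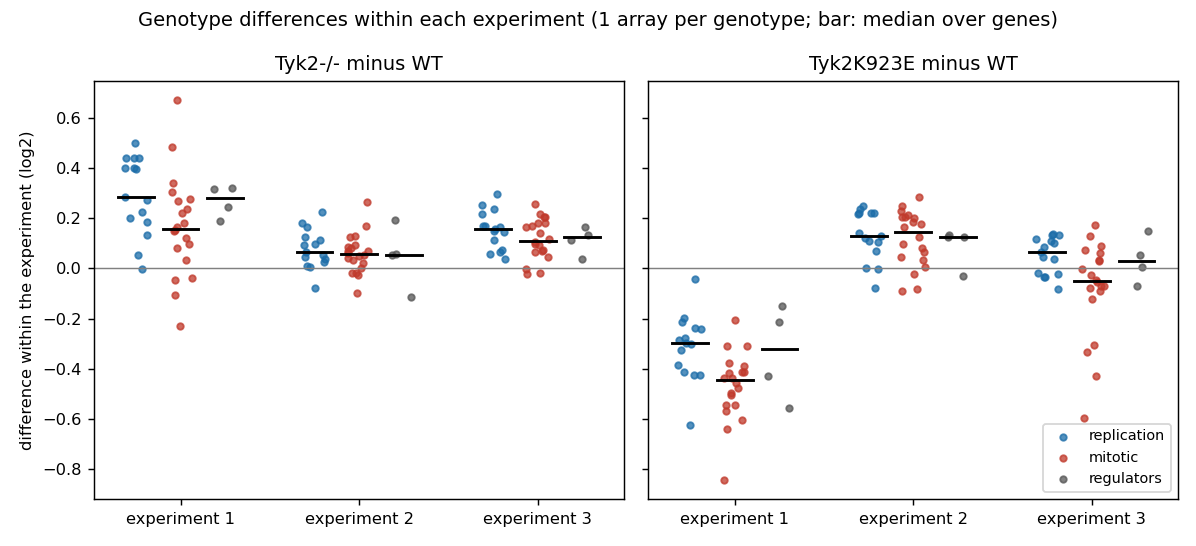
Each point is the log2 difference of 1 gene between the mutant and the WT array of the same experiment, Tyk2-/- on the left and Tyk2K923E on the right, with black bars at the group medians and no replicate behind a point. In experiment 1 the Tyk2K923E points all lie below 0, around medians of -0.30 (replication) and -0.45 (mitotic), whereas in experiment 2 those medians are 0.13 and 0.14.

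Within an experiment there is 1 array per genotype, so the following values have no replicate and no test, and a gene is counted where it lay more than 0.25 from WT. In experiment 1, Tyk2-/- read higher than WT for 34 of 39 genes, by a median of 0.22. It was above the limit for 17 of 39 and below it for 0, against 11.6% and 9.66% of all genes. The largest were Mki67 (0.67), Rrm2 (0.50), Cenpe (0.48), Mcm4, Mcm3 and Cdc6 (each 0.44), whereas Ttk read at -0.23. In the same experiment Tyk2K923E read lower than WT for 39 of 39 genes, by a median of -0.41. It was below the limit for 31 of 39 and above it for 0, against 11.7% and 8.75% of all genes. Ttk (-0.84), Cenpf (-0.64), Tyms (-0.62), Mki67 (-0.61), Cdc20 (-0.57) and Foxm1 (-0.56) were farthest, and Pcna (-0.04) was nearest to WT.

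In experiment 2 both mutants read slightly above WT. Tyk2-/- had a median of 0.06, with 32 of 39 genes higher, 1 above the limit (Bub1, 0.26) and 0 below it, against 5.1% and 6.03% of all genes. Tyk2K923E had a median of 0.13, with 32 of 39 genes higher, 1 above the limit (Ttk, 0.28) and 0 below it, against 6.12% and 4.83% of all genes. Ttk, the gene farthest below WT in the Tyk2K923E cultures of experiment 1, was thus the farthest above it in experiment 2. In experiment 3, Tyk2-/- read higher for 36 of 39 genes, with a median of 0.14. Above the limit were 3 of 39 (Mcm5, 0.29, Bub1, 0.25, and Ccne1, 0.25) and below it 0, against 4.75% and 5.65% of all genes.

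For Tyk2K923E in experiment 3 the 39 genes were divided, 20 above and 19 below WT, with a median of 0.01. Above the limit were 0 of 39 and below it 4 of 39, against 5.9% and 7.35% of all genes. The 4 were Cenpf (-0.60), Cenpe (-0.43), Mki67 (-0.33) and Ccnb2 (-0.31), all mitotic genes. They were below WT in experiment 1 too, but so were all 39 genes, which does not set these 4 apart. In experiment 2 the same 4 differed from WT by 0.03, 0.07, -0.08 and -0.09. The replication genes of the Tyk2K923E array of experiment 3 had a median of 0.07 and the mitotic genes a median of -0.05. Whether the genotype differences themselves differ between experiments was not tested.

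The order Tyk2K923E below WT below Tyk2-/- held in experiment 1 for 34 of 39 genes, against 20.2% of all genes. The 5 genes outside it were Gins2, Cdc20, Bub1, Ttk and Nusap1. In experiment 2 it held for 3 of 39 (Cdt1, Ccnb2 and E2f1), against 10.8% of all genes, and in experiment 3 for 16 of 39, against 17.3%. Cdt1 was the only gene of the 39 with this order in all 3 experiments, although in experiment 2 its Tyk2K923E value differed from WT by only -0.0032.

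Markers of another cell type moved with some of these values. The summed linear level of 12 T cell markers was 9000 on the WT array of experiment 1, 7920 on Tyk2-/- and 5790 on Tyk2K923E. It was 6790, 6970 and 7180 in experiment 2 and 9880, 9790 and 7080 in experiment 3, in the same order. The Tyk2K923E array of experiment 1, lowest of the 9 for all 39 cell cycle genes, was thus also the lowest for this sum. The WT array of experiment 1, by contrast, had a higher sum than any array of experiment 2. The sum weights the brightest markers most, and single markers differed. On the Tyk2K923E array of experiment 1, Cd3d (8.32), Cd3e (10.5), Cd8b1 (7.38), Lat (8.32) and Themis (5.57) were the lowest of the 9. Cd4, Cd5, Cd6, Cd8a and Bcl11b were not, and Cd28 (9.42) was the highest. Of 11 T cell markers tested, 11 read lower and 0 higher in Tyk2K923E than in WT (median -0.38). In Tyk2-/- 10 read lower and 1 higher (median -0.09). The paired fit called 0 in either comparison (0.0874% of all genes in each). Cd8a read 8.01 there and 7.85 on the Tyk2K923E array of experiment 3. The summed level of 7 basophil and mast cell markers was 1420 to 1780 in WT, 1740 to 2800 in Tyk2-/- and 1960 to 2880 in Tyk2K923E, and that of 7 monocyte markers 669 to 767 in experiment 1 and 536 to 607 in the others. The part of these cells in the differences was not tested.

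Other genes of the cell cycle, from lists written by function, showed how far the difference of experiment 1 reached. Of 42 further replication genes tested, 33 were called lower in experiment 1 than in experiment 2 and 32 than in experiment 3, with 0 called higher and a median of -0.63 from the mean of both. Those with the smallest p were Pola1 (-1.06) and Pola2 (-0.72), of the polymerase alpha-primase complex, Fen1 (-0.80), the nuclease that trims Okazaki fragments, and Orc2 (-0.76), of the origin recognition complex. Of 49 further mitotic genes, 43 and 40 were called lower and 0 higher, with a median of -0.56. Smc2 (-1.33), of condensin, Knl1 (-1.24), a kinetochore scaffold, and the kinesins Kif4 (-0.88) and Kif18a (-0.83) had the smallest p.

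Among genes of G1 phase and of growth, more were called lower than higher in experiment 1. Of all genes, 16.9% were called lower and 11.6% higher against experiment 2, and 17.2% lower and 14.7% higher against experiment 3. Of 27 G1 cyclins, kinases and pocket proteins, 12 were called lower and 1 higher against experiment 2, and 15 lower and 2 higher against experiment 3, with a median of -0.27. Cdc25a (-0.84), the phosphatase that activates CDK2, Tfdp1 (-0.76), the dimer partner of E2F, Skp2 (-0.70), which targets p27 for destruction, and E2f3 (-0.55) had the smallest p. Of 18 genes of the IL-2 growth response, 6 and 8 were called lower and 0 and 1 higher, with a median of -0.08. Nolc1 (-1.23) and Ncl (-0.63), of the nucleolus, Tfrc (-0.59), the transferrin receptor, and Myc (-0.43) had the smallest p. Of 16 DNA damage response and repair genes, 14 were called lower against each experiment and 0 higher, with a median of -0.79, among them Brca2 (-1.42), Atm (-1.17), Exo1 (-1.14) and Fanci (-0.85).

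Inhibitors of the cycle and quiescence genes were mixed, with more higher than lower in experiment 1. Relative to the mean of experiments 2 and 3, 14 read higher and 6 lower. Of 20 tested, 8 were called higher and 2 lower against experiment 2, and 9 higher and 3 lower against experiment 3, with a median of 0.19. Btg2 (0.97) and Btg1 (0.35), antiproliferative genes, Cdkn1b (0.87), which encodes the CDK inhibitor p27, and Ccng2 (0.82), a cyclin of resting cells, had the smallest p. Against experiments 2 and 3, 11.6% and 14.7% of all genes were called higher and 16.9% and 17.2% lower. These shares stand beside the counts of every list here, and the lists were described only, without a test of the list.

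**Figure D4:**
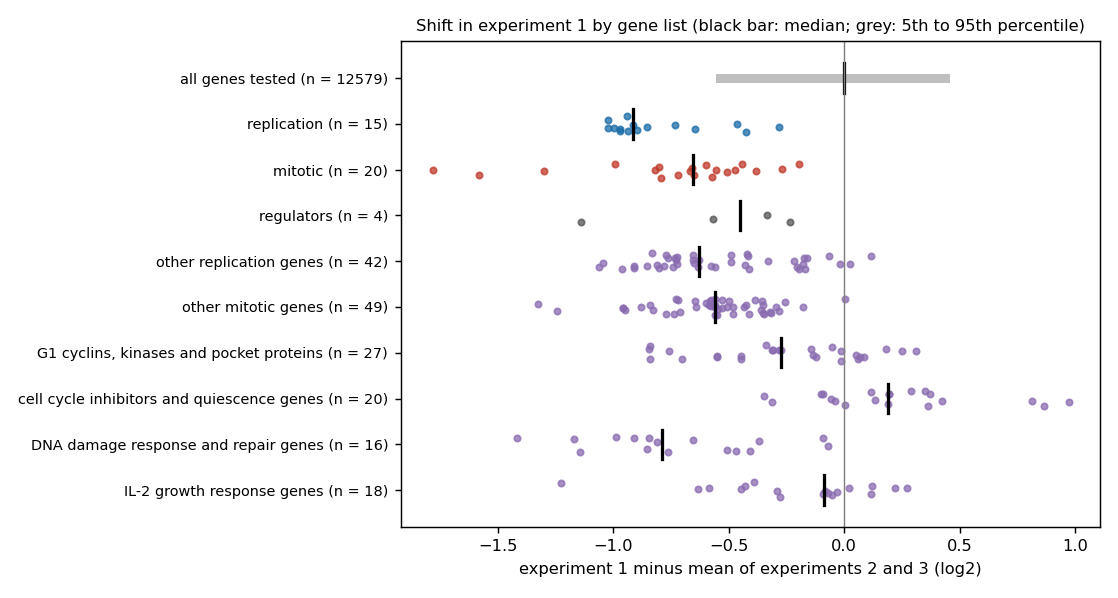
Each point is the log2 difference of 1 gene between experiment 1 and the mean of experiments 2 and 3, grouped by list, with black bars at the list medians and, for all 12579 genes, a grey band from the 5th to the 95th percentile. The replication (-0.91), mitotic (-0.65), other replication (-0.63), other mitotic (-0.56) and DNA damage (-0.79) medians lie to the left, and that of the inhibitors and quiescence genes (0.19) to the right.

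Between genotypes, the unpaired fit called 0 genes of these 6 lists in any of the 3 comparisons (limma adjusted p = 1 for each gene named here). With the experiments paired it called 1, Btg2, lower in Tyk2-/- than in WT (-0.50, SE 0.06, limma adjusted p = 0.0446). In that comparison 0.0874% of all genes were called. Unpaired, the SE of the Btg2 difference was 0.39. The smallest unpaired p belonged to Cdk6, a kinase that phosphorylates the retinoblastoma protein, at 0.29 in Tyk2-/- relative to WT. For the same comparison the leading genes were Ccnd1 (0.14), a D-type cyclin, Rfc3 (0.14) and Pole2 (0.12) of the replication fork, Espl1 (0.37), the separase that cuts cohesin, and its inhibitor Pttg1 (0.06). Msh6 (0.19), of mismatch repair, the checkpoint kinase Chek2 (0.08), Il2ra (0.33), the alpha chain of the IL-2 receptor, Slc7a5 (0.15), an amino acid transporter, and Btg1 (-0.15) led the remaining lists with Btg2.

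Relative to WT, Tyk2K923E gave Rfc3 (0.20) and Dut (0.07), which removes dUTP, Depdc1a (-0.23) and Ckap2 (-0.18), Ccnd3 (-0.18) and Cdk6 (0.13), the phosphatase gene Cdc14b (0.17) and the inhibitor Cdkn2a (-0.18), Chek2 (-0.08) and Chek1 (-0.20), and Il2ra (0.28) and Socs2 (-0.27), a feedback inhibitor of cytokine receptors, as the leading genes of the lists. Between Tyk2-/- and Tyk2K923E they were Rpa1 (0.14), of the single-strand binding complex, and Dbf4 (0.27), which activates CDC7, Ckap2 (0.25) and Cdca3 (0.21), Cdk6 (0.17) and Cks2 (-0.13), Btg1 (-0.25) and Cdc14b (-0.12), Chek2 (0.16) and Msh6 (0.14), and Cish (0.35), a target of STAT5, and Slc7a5 (0.11). None of these was called. The other mitotic genes had a median of 0.08 in Tyk2-/- and -0.10 in Tyk2K923E relative to WT, and the other replication genes 0.11 and -0.01.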

How the data were processed

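Affymetrix arrays labelled with the WT PLUS kit were read from the table of log2 values that the authors deposited. Per the submitters' processing notes they were normalised with RMA in Partek 6.6. The version of RMA and the build were not given. The platform annotation gave the gene of each probe set (41345 in all): 23521 had 1 symbol, 1814 had several and 16010 were not listed. A gene was kept if a probe set with 1 symbol reached its array median on at least 3 of 9 arrays, which left 12579 genes.

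Genotypes were compared with limma 3.58.1 in R 4.3.3 (group means, 9 arrays), and experiments with genotype as a term, with Benjamini-Hochberg adjustment over all genes and a threshold of 0.05. The samples are paired by the experiment number in the labels. Deviations from the genotype mean correlated at 0.383 to 0.787 between arrays of the same experiment and at -0.71 to 0.559 otherwise, so the paired fit stands beside the unpaired one. Marker levels were summed on the linear scale.

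The rule named all members, with full values for the 4 brightest of each group, and from each further list the 4 genes with the smallest p between experiment 1 and the others and the 2 with the smallest p in each genotype comparison. Further full values were given for the largest shifts. The members and lists were chosen with earlier results of these data known. The limit of 0.25 for single arrays, the promoters printed and the fit to experiments 2 and 3 alone were chosen after the values were seen. Alternatives included a fixed or a random block for the experiment (statmod 1.5.0), fewer genotypes, other filters, thresholds and normalisations, the mean over probe sets, an intensity trend, no genotype term and leaving out arrays.

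On simulated data (12579 genes, log2 changes of 0.5, 1 and 2), the unpaired fit of Tyk2-/- against WT recovered 28.4%, 91% and 97% of changed genes with 0 false calls, the paired fit 70.1%, 100% and 100% with 6, and the fit of experiment 1 against 2 recovered 77.6%, 100% and 100% with 10. Figures were drawn with Python 3.11.15 and matplotlib 3.10.9.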

Additional observations from a re-analysis of the deposited data

Results flagged for a closer look

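In experiment 1 the replication genes of the Tyk2K923E culture had a median of -0.30 relative to WT, whereas in experiments 2 and 3 the medians were 0.13 and 0.07. The regulators had a median of -0.32 in experiment 1 and of 0.13 and 0.03 in experiments 2 and 3. The same contrast thus pointed in opposite directions in different experiments. Each value compares 1 array with 1 array, and the difference between experiments was not tested.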

How the results depend on the processing

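With the experiment as a fixed or random replicate block, 0 of 39 genes were called in each genotype comparison, as in the unpaired fit, and the same held in experiments 2 and 3 alone with the replicate block (added after the data were seen). The number stayed 0 under every other alternative run, including the looser threshold of 0.1. Leaving out single arrays or whole experiments moved the genotype medians of the unpaired fit. Replication genes ranged from -0.071 to 0.396 and mitotic genes from -0.043 to 0.251 in Tyk2-/- against WT. The ranges were -0.30 to 0.36 and -0.31 to 0.23 in Tyk2K923E against WT. Leaving out 1 array represents the experiments unequally, so these ranges include the shift of experiment 1. Within experiments 1, 2 and 3 the replication medians relative to WT were 0.28, 0.06 and 0.16 for Tyk2-/-. For Tyk2K923E they were -0.30, 0.13 and 0.07. The counts of genes called lower in experiment 1 ranged from 26 to 38 (against experiment 2) and from 27 to 37 (against experiment 3) over all alternatives. With 3 arrays per genotype, changes could be missed. On simulated data of Tyk2-/- against WT the unpaired fit recovered 28.4% of log2 changes of 0.5 and 91% of changes of 1. The paired fit recovered 70.1% and 100%. The changed genes were drawn at random from all genes tested, so these rates need not hold for the 39. Their SE in that comparison ranged from 0.13 (Ccnb2) to 0.73 (Cenpe) unpaired, and from 0.07 (Pcna) to 0.19 (Mki67) paired. Each culture is a pool, so the spread between single mice was not measured.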

Other observations

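The members with the largest shifts in experiment 1 encode very long proteins (Cenpe, Cenpf, Mki67). Among the 39 genes, the shift and the genomic length of the gene in RefSeq had a Spearman rho of -0.418, and among 12561 genes tested a rho of -0.0998. Genes are not independent replicates, and transcript length was not used. Of 24 other genes for very large proteins, listed after these values were seen, 22 were tested: 20 read lower in experiment 1, by a median of -0.29, and 11 were called lower against each of experiments 2 and 3, with 0 called higher. Of all genes, 16.9% and 17.2% were called lower and 11.6% and 14.7% higher. The farthest below 0 were Cad, which starts pyrimidine synthesis, at -1.11 and Prkdc, the DNA-dependent protein kinase, at -1.05. Utrn was at -0.05, Dock2 at -0.04, Ryr1 at 0.11 and Ahnak at 0.19. Since the list followed the values, its counts are a description and no test of length. RNA integrity was not given for these samples, and its part in the differences was not tested.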
